A study of Homo sapiens with 12 samples.

Results

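The comparison described here set BxPC3-R, a derivative of the pancreatic ductal adenocarcinoma line BxPC3 with resistance to cisplatin, against its parental line BxPC3. The members were chosen by their labels: 6 of the 12 arrays of the series, 3 per group, and 18417 genes measured on each of them. BxPC3-R cells were kept in medium with 0.6 µM cisplatin, BxPC3 cells were grown without it, and both were subconfluent and without the drug in the last passage before RNA was taken. The other 6 arrays came from AsPC1-R, kept in 1.67 µM cisplatin, and its parental line AsPC1. They entered the fit that estimates the spread, and are set beside the BxPC3 pair where the change differed between the lines. BxPC3-R is 1 derivative of 1 line, so a change in it cannot be told apart from any other difference between this derivative and the parental cells, and the labels do not state whether it is a clone. Nor do they state whether each array had a culture of its own. A p-value here thus reflects no more than the scatter among these samples, and that scatter may be technical.

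Cisplatin forms platinum adducts that link bases within and between DNA strands. Uptake and export of the drug, its binding by glutathione and metallothioneins, repair or bypass of the adducts and the threshold for cell death are the processes most often linked with resistance. BxPC3 is a ductal line with deletions of SMAD4 and CDKN2A. Ductal carcinoma cells often make chemokines, acute-phase proteins and antimicrobial factors through NF-kB, a family of transcription factors that is held in the cytoplasm by inhibitors which it also induces, so that transcripts of its targets include its own brakes.

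Values are log2 levels per gene, and the median of each array of the BxPC3 pair was between 6.48 and 6.57. Array values are given below in the order of replicates 1, 2 and 3. SMAD4 read 4.43, 4.75 and 4.72 in BxPC3-R, against 4.14, 5.01 and 4.96 in BxPC3, and CDKN2A 5.73, 5.51 and 6.0 in BxPC3-R, against 6.33, 6.11 and 6.21 in BxPC3, which gives the level read for deleted genes. CDKN2A passed the test nevertheless (log2 change -0.47, SE 0.14, limma adjusted p = 0.0249), and lost its call without any 1 of 4 arrays. Changes within or towards levels up to 6.33 are therefore uncertain in size. Of 10 ductal epithelial markers, 9 lay above the median of all values, 6.55, in at least 1 of both groups, and their mean level was 9.52 to 9.60 in BxPC3-R and 9.47 to 9.59 in BxPC3. These means hide changes in both directions. At an adjusted p under 0.05 by limma, KRT7, KRT8 and KRT18, all on chromosome 12, were higher, and MUC1, CFTR and CLDN4 were lower. Off that chromosome 0 of 7 were higher and 3 lower, with a median change of -0.122. The mean levels of leukocyte markers (12 genes), acinar and endocrine markers (6 genes) and neural and muscle markers (10 genes) lay between 5.51 and 6.09 on all 6 arrays. BxPC3 replicate 2 stood apart: 50 genes chosen because AsPC1 exceeded BxPC3-R in them by most were all highest on that array within BxPC3, with a median of 0.83 above the mean of the other arrays. CDH17, an intestinal-type cadherin, read 4.48, 3.88 and 4.26 in BxPC3-R, against 4.99, 9.0 and 4.47 in BxPC3, and averaged 13.09 in AsPC1-R and 13.28 in AsPC1. Counts are therefore given with and without this array, and its part in them was not tested otherwise. BxPC3 replicate 1 stood apart for the rises: of the 110 genes at least 2-fold higher in BxPC3-R it was the lowest BxPC3 array for 86, with a median of -0.216 against the other arrays, and 99 genes were called at least 2-fold higher without it.

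In BxPC3-R, 1795 genes (9.75% of those tested) were higher and 2031 (11.0%) were lower than in BxPC3 by limma at an adjusted p under 0.05. Without BxPC3 replicate 2, 1601 genes (8.69%) were higher and 1602 (8.7%) lower; 1490 of the higher and 1572 of the lower genes were called in both fits. The larger changes ran mostly downwards. At least 2-fold, 110 genes (0.597%) were higher and 318 (1.73%) lower, and all of them were also called without that array. A change of at least 3 on the log2 scale was reached by 0 higher and 14 lower genes. Rises made up 46.9% of all calls, but 56.7% when each array was centred on its median over the genes, so the balance of directions over all calls depended on the scaling, which moved the median change of all genes from 0.019 to 0.067. At least 2-fold, that scaling, added after seeing the data, gave 130 higher and 286 lower genes. For 7035 of the 18417 genes tested, the 3 BxPC3-R arrays lay all above or all below the 3 BxPC3 arrays. This criterion is looser than the calls (9.75% higher and 11.0% lower).

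**Figure D1:**
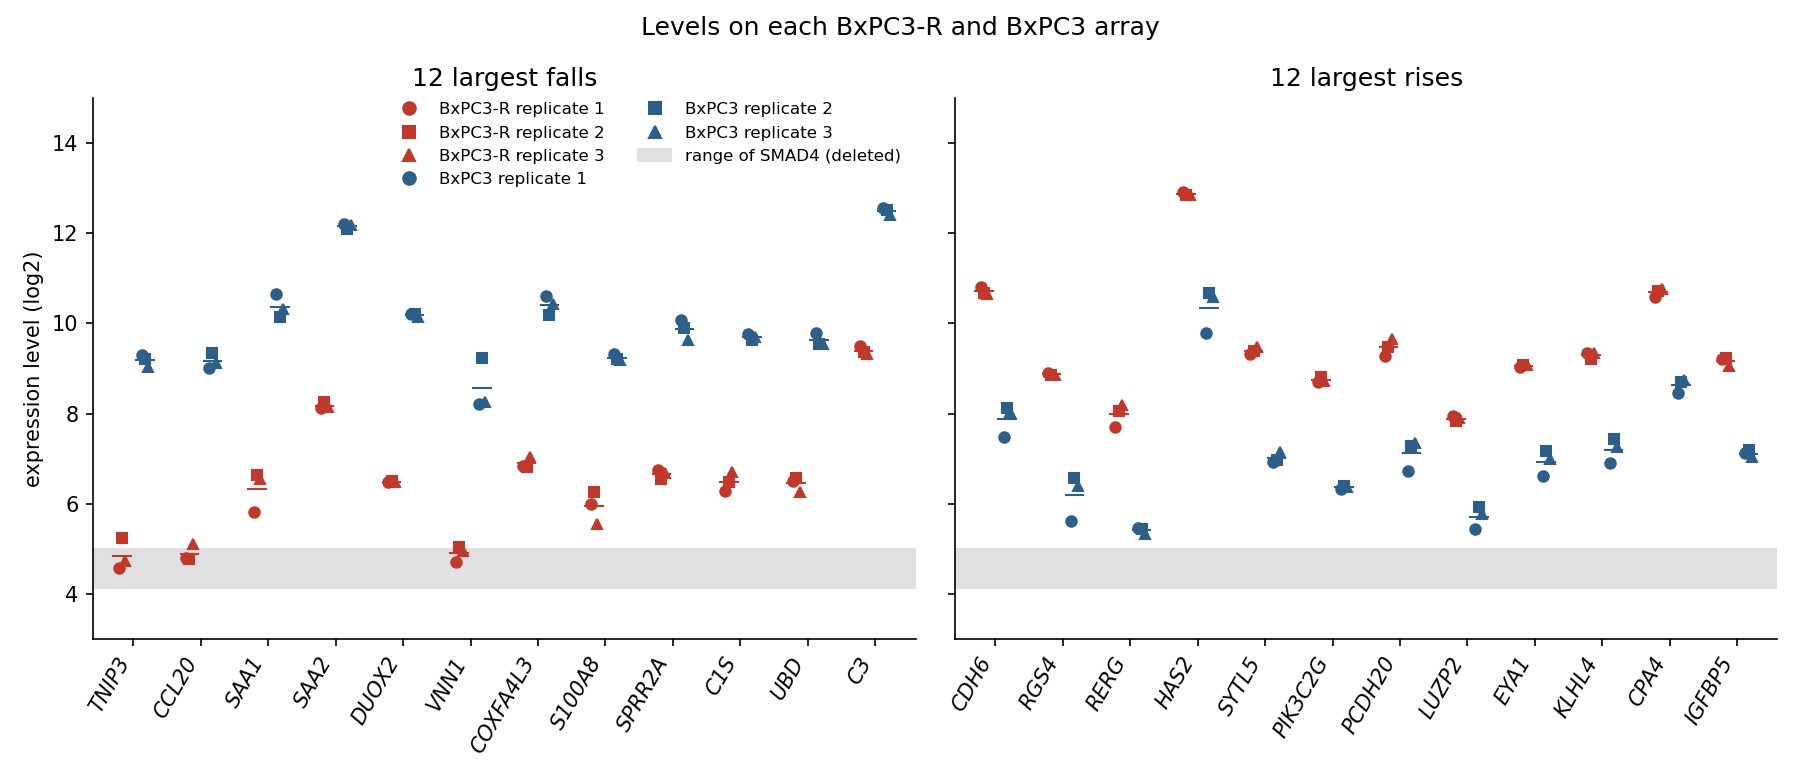
Log2 levels on each array for the 12 largest falls (left) and the 12 largest rises (right) that the rule for named genes gave. Each point is 1 array, BxPC3-R left of BxPC3 for each gene, horizontal lines are means of 3 arrays, and the grey band is the range of the deleted SMAD4 over the 6 arrays. The BxPC3-R arrays of TNIP3, CCL20 and VNN1 lay in that band or just above it, and VNN1 was higher on BxPC3 replicate 2 than on the other BxPC3 arrays.

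NF-kB feedback inhibitors and chemokines were among the genes that fell furthest. TNIP3, which encodes a partner of the deubiquitinase A20 that restrains NF-kB, read 4.59, 5.24 and 4.73 in BxPC3-R, against 9.29, 9.22 and 9.04 in BxPC3 (log2 change -4.33, SE 0.14, limma adjusted p = 3.76e-10). NFKBIA, the IkB-alpha inhibitor that holds NF-kB in the cytoplasm, read 10.06, 10.13 and 10.23 in BxPC3-R, against 11.22, 11.36 and 11.29 in BxPC3 (log2 change -1.15, SE 0.08, limma adjusted p = 3.78e-07). All 3 BxPC3-R arrays lay below all 3 BxPC3 arrays for both genes, which the rule that named TNIP3 required. For TNIP3 the BxPC3-R arrays were as low as deleted genes. TNFAIP3, which encodes A20 itself, changed by -1.21 (SE 0.13) and its partner TNIP1 by -1.20 (SE 0.10). Of 23 genes of NF-kB subunits and feedback inhibitors, 13 were lower and 0 were higher by limma, with 14 lower and 1 higher at an unadjusted p under 0.05, and the median change was -0.42 (all genes tested: 0.019). Without BxPC3 replicate 2 there were 12 lower and 1 higher.

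CCL20, which attracts CCR6-bearing lymphocytes and dendritic cells, read 4.79, 4.78 and 5.10 in BxPC3-R, against 9.01, 9.34 and 9.12 in BxPC3 (log2 change -4.27, SE 0.13, limma adjusted p = 2.76e-10). CXCL8, the neutrophil attractant interleukin-8, read 7.27, 7.41 and 7.60 in BxPC3-R, against 10.09, 10.46 and 10.36 in BxPC3 (log2 change -2.87, SE 0.12, limma adjusted p = 2.67e-09). CXCL5 and CXCL1, ligands of the same neutrophil receptor, changed by -3.04 (SE 0.10) and -2.78 (SE 0.11). In all 4 cases the arrays of BxPC3-R and BxPC3 lay more than 2 log2 units apart, whereas the 3 arrays of each group lay within 0.39. The rule that named these genes chose them for large changes without overlap. Of 17 chemokine genes, 13 were lower and 0 higher by limma (13 and 0 at an unadjusted p under 0.05), with a median change of -0.79, and 13 were lower without BxPC3 replicate 2. The promoter windows of chemokine and inhibitor genes with the NF-kB pattern are shown because these genes fell in common. They come from RefSeq on GRCh38.p14, in the direction of transcription, with the match to GGAANNTCC (for CCL20 and TNIP3, to the degenerate NF-kB consensus) in capitals.
CXCL1, chr4:73869285-73869353, plus strand: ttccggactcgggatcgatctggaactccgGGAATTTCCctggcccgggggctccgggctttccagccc
CXCL5, chr4:73998729-73998797, minus strand: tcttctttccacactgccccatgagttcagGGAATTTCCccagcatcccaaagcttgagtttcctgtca
CXCL8, chr4:73740448-73740516, plus strand: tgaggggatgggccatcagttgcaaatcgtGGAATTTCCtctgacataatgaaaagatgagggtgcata
CCL20, chr2:227813733-227813802, plus strand: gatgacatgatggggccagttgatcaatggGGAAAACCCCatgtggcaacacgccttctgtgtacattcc
NFKBIA, chr14:35404792-35404860, minus strand: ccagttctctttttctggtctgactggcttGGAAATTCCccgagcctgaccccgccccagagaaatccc
TNFAIP3, chr6:137867162-137867230, plus strand: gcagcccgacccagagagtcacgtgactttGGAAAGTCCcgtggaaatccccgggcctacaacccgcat
TNIP3, chr4:121227506-121227575, minus strand: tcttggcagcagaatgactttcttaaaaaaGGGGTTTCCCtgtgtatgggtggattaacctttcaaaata

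The pattern GGAANNTCC, searched on both strands of the 250 bases before the start, was present in 3.88% of all 27305 promoters. It was present in 8 of the 13 chemokine genes with a promoter sequence and in 5 of 20 NF-kB subunit and inhibitor genes, against 2 of 15 acute-phase and complement genes and 1 of 22 genes of the interleukin-1 and interleukin-6 families. By call, it was present in 7 of 10 lower and 1 of 3 other chemokine genes, in 5 of 12 lower and 0 of 8 other genes of the NF-kB list, in 1 of 10 lower and 1 of 5 other acute-phase genes, and in 1 of 11 lower and 0 of 11 other interleukin genes. The degenerate consensus, which overlaps it, was present in 5.05% of all promoters, in 8 of 13 chemokine genes, 7 of 20 genes of the NF-kB list, 2 of 15 acute-phase genes and 1 of 22 interleukin genes. Its counts by call were 7 of 10 lower and 1 of 3 other, 7 of 12 and 0 of 8, 2 of 10 and 0 of 5, and 1 of 11 and 0 of 11 for these lists in the same order. In CXCL1, CXCL5, CXCL8, NFKBIA and TNFAIP3 the match shown began 78, 90, 91, 81 and 67 bases upstream, and in CCL20 and TNIP3 79 and 62 bases upstream. Patterns were chosen after several had been looked at with the calls known, and a match describes letters in a window, not binding.

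Acute-phase and complement transcripts were lower as well. SAA2 read 8.11, 8.25 and 8.15 in BxPC3-R, against 12.20, 12.10 and 12.18 in BxPC3 (log2 change -3.99, SE 0.17, limma adjusted p = 3.03e-09). SAA1 changed by -4.04 (SE 0.25), but both genes are near-identical in sequence and a second probe set of SAA2 gave -2.96, so their separate sizes are uncertain. The complement protease gene C1S read 6.29, 6.49 and 6.70 in BxPC3-R, against 9.77, 9.63 and 9.70 in BxPC3 (log2 change -3.21, SE 0.17, limma adjusted p = 2.65e-08), and C3, the central complement component, changed by -3.09 (SE 0.14). Among 22 genes of this group, 14 were lower and 0 higher by limma (16 and 0 at an unadjusted p under 0.05), with a median change of -0.559; 12 were lower without BxPC3 replicate 2. IL6, the cytokine that induces acute-phase genes in liver, read 5.55, 5.41 and 5.45 in BxPC3-R, against 8.04, 8.26 and 8.15 in BxPC3 (log2 change -2.68, SE 0.10, limma adjusted p = 5.22e-10), so that its BxPC3-R arrays lay at the level of deleted genes. IL36G, IL33 and IL1B, members of the interleukin-1 family, changed by -1.95 (SE 0.12), -1.84 (SE 0.10) and -1.59 (SE 0.11). The receptor gene IL6R was higher, at 0.54 (SE 0.12), and so was the kinase gene IRAK1, at 0.31 (SE 0.07). In the interleukin-1 and interleukin-6 families together, 11 of 26 genes were lower and 2 higher, with and without BxPC3 replicate 2.

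Of 40 interferon-stimulated genes, 21 were lower and 0 higher by limma (26 and 0 at an unadjusted p under 0.05), with a median change of -0.333. IFITM1, which restricts virus entry, read 9.30, 9.35 and 9.32 in BxPC3-R, against 11.40, 11.19 and 11.14 in BxPC3 (log2 change -1.92, SE 0.10, limma adjusted p = 2.80e-08). IFI27 read 8.78, 8.80 and 8.90 in BxPC3-R, against 10.57, 10.78 and 10.81 in BxPC3. The guanylate-binding protein gene GBP2 changed by -1.93 (SE 0.12), or by -1.30 on its other probe set, and the antiviral TRIM22 by -1.82 (SE 0.14). Leaving out BxPC3 replicate 2 gave 20 lower genes. In interferon and pattern-recognition signalling, 9 of 26 genes were lower and 1 higher: the interferon-gamma receptor gene IFNGR1 changed by -0.83 (SE 0.11), the inflammatory caspase gene CASP1 by -1.01 (SE 0.18), and the RNA and lipopeptide sensors TLR3 and TLR2 by -0.77 (SE 0.09) and -0.94 (SE 0.13). TLR4, the endotoxin sensor, rose by 0.43 (SE 0.14), a call that was lost when any of 4 single arrays was left out (adjusted p up to 0.117 without BxPC3 replicate 1). Antigen presentation counted 11 lower and 0 higher of the 17 genes measured, out of 26 listed, by limma (12 and 0 at an unadjusted p under 0.05; 11 lower without BxPC3 replicate 2), among them the protease gene CTSS at -1.85 (SE 0.11), the immunoproteasome gene PSMB9 at -1.42 (SE 0.17) and the peptide-trimming ERAP1 at -0.93 (SE 0.08).

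Promoter windows of IFITM1 and IFI27 are shown with a match to GAAANNGAA, the core of the interferon response element, in capitals (RefSeq, GRCh38.p14).
IFITM1, chr11:313970-314038, plus strand: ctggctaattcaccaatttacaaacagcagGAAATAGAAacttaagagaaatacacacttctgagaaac
IFI27, chr14:94110611-94110679, plus strand: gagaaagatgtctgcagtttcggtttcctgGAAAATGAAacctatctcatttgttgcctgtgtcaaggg
Searched on both strands, this pattern was present in 7.06% of all promoters and in 21 of the 32 interferon-stimulated genes with a promoter sequence. It was present in 12 of 18 lower members and in 9 of 14 others, so within the list it did not set the lower members apart.

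Transcripts of epithelial defence were lower, led by DUOX2, an NADPH oxidase that releases hydrogen peroxide at mucosal surfaces. DUOX2 read 6.48, 6.51 and 6.47 in BxPC3-R, against 10.21, 10.21 and 10.14 in BxPC3 (log2 change -3.70, SE 0.08, limma adjusted p = 8.49e-12). The neutrophil elastase inhibitor gene PI3 read 9.14, 9.09 and 9.22 in BxPC3-R, against 12.18, 12.09 and 12.09 in BxPC3 (log2 change -2.97, SE 0.12, limma adjusted p = 1.33e-09). For both genes the arrays within a group lay close to each other. The rule that named them required groups that did not overlap, so the lack of overlap adds nothing. The pantetheinase gene VNN1 changed by -3.66 (SE 0.20), or by -3.33 without BxPC3 replicate 2, where it was highest, and the calgranulin gene S100A8 by -3.30 (SE 0.19). Both ended at or under the levels of deleted genes. The trefoil factor gene TFF1 was higher, at 0.92 (SE 0.11). In all, 17 of 30 defence genes were lower and 1 higher, or 16 and 1 without BxPC3 replicate 2, with a median change of -0.673. Further large falls were those of UBD, a ubiquitin-like modifier, at -3.17 (SE 0.11), of IDO1, which breaks down tryptophan, at -2.84 (SE 0.12), and of CLCA2, a chloride channel accessory protein, at -2.80 (SE 0.14). COXFA4L3, a subunit of mitochondrial cytochrome c oxidase, changed by -3.51 (SE 0.16).

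**Figure D2:**
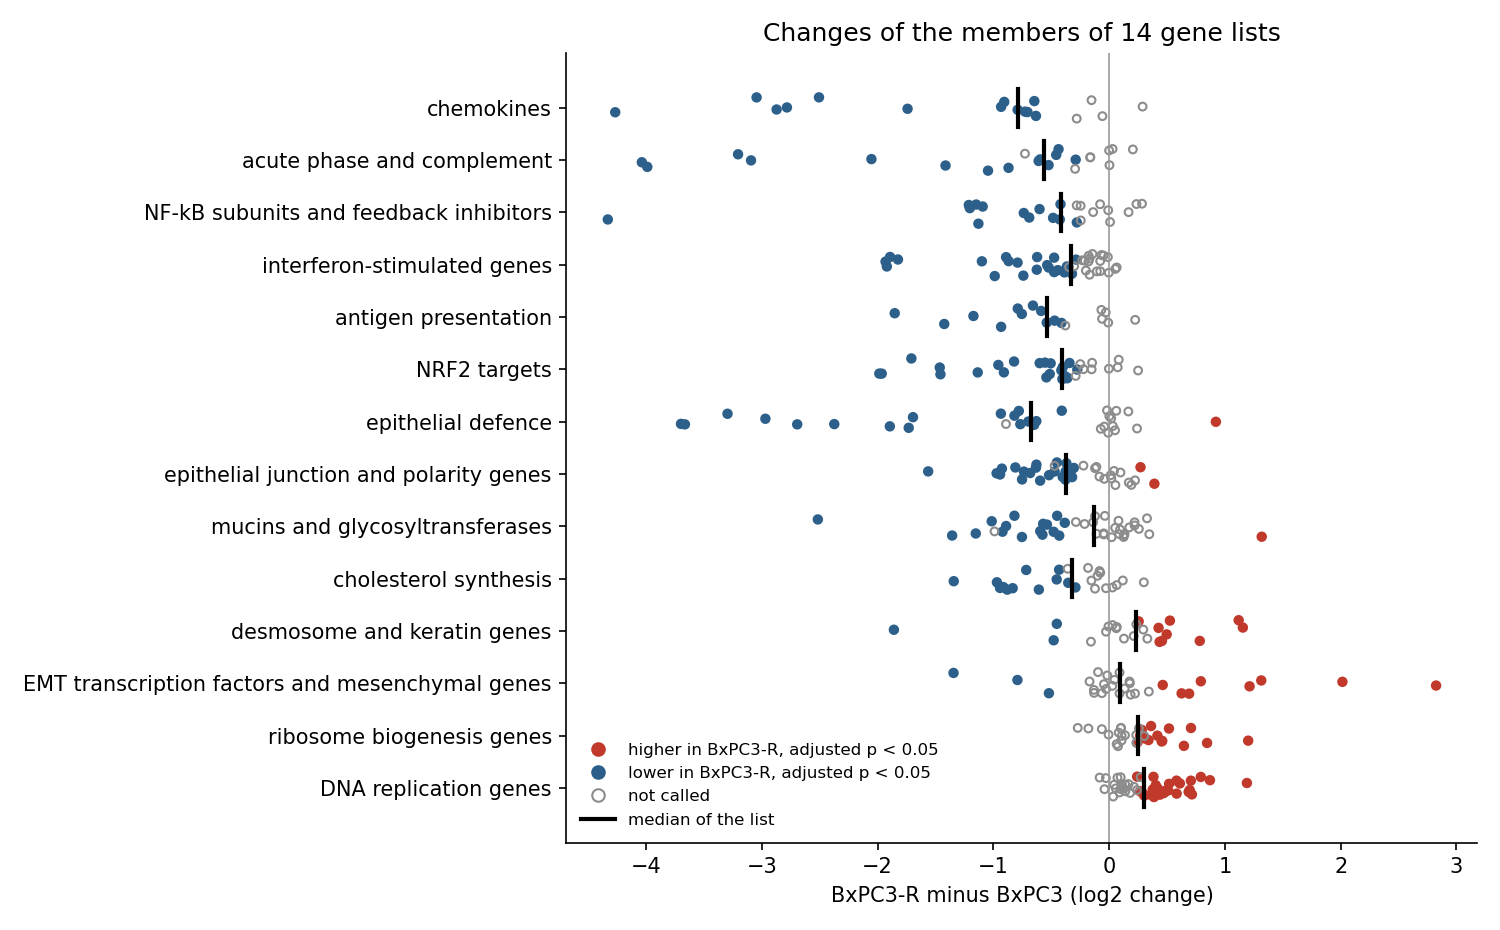
Log2 change, BxPC3-R minus BxPC3, for each measured member of 14 gene lists. Filled points passed limma at an adjusted p under 0.05, open points did not, vertical bars are list medians, and vertical scatter has no meaning. Chemokines had a median of -0.79 and NRF2 targets of -0.404, whereas DNA replication genes had a median of 0.304.

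NRF2 is the transcription factor that drives detoxification and glutathione synthesis. Of 31 NRF2 targets, 22 were lower and 0 higher by limma (24 and 1 at an unadjusted p under 0.05), with a median change of -0.404; 21 were lower without BxPC3 replicate 2 and 18 to 21 with any single array left out. ALDH3A1, which oxidises aldehydes, read 9.47, 9.29 and 9.19 in BxPC3-R, against 11.19, 10.98 and 10.90 in BxPC3 (log2 change -1.71, SE 0.11, limma adjusted p = 1.22e-07). GCLC, the catalytic subunit of the enzyme that limits glutathione synthesis, read 10.29, 10.30 and 10.39 in BxPC3-R, against 11.58, 11.41 and 11.40 in BxPC3 (log2 change -1.14, SE 0.08, limma adjusted p = 1.74e-07). For both genes every BxPC3-R array lay below every BxPC3 array. They were named for large called falls, so this adds nothing to the calls. The cystine importer gene SLC7A11 changed by -0.91 (SE 0.09) and the glutathione peroxidase gene GPX4 by -0.69 (SE 0.11). AKR1C1, AKR1C2 and AKR1C3, aldo-keto reductases, changed by -1.99, -1.96 and -1.46. Their sequences are near-identical and a second probe set of AKR1C1 gave -0.616, so they count as uncertain one by one. In glutathione and thioredoxin metabolism, 15 of 38 genes were lower and 2 higher, and 11 and 2 without BxPC3 replicate 2; CHAC2, which degrades glutathione, was higher at 0.69 (SE 0.13). Of 20 metallothionein and metal handling genes, 7 were lower and 2 higher (8 and 2 without that array). MT1E, a metallothionein, changed by -1.01 (SE 0.10) and the iron exporter gene SLC40A1 by -1.13 (SE 0.11), while the zinc importer gene SLC39A10 rose by 0.85 (SE 0.08) and the transferrin receptor gene TFRC by 0.52 (SE 0.08).

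Among 23 genes of platinum and copper transport, 3 were higher and 4 lower (13.0% and 17.4%, against 9.75% and 11.0% of all genes). There were 3 higher and 1 lower without BxPC3 replicate 2 (2 lower without BxPC3-R replicate 3). The copper pump gene ATP7A read 9.53, 9.64 and 9.71 in BxPC3-R, against 8.81, 9.0 and 8.94 in BxPC3 (log2 change 0.71, SE 0.10, limma adjusted p = 1.20e-04). LRRC8C, a subunit of volume-regulated anion channels, a family that can pass cisplatin, rose by 0.82 (SE 0.11). This gene lies on chromosome 1, where 24.7% of expressed genes were higher. ABCC4, an exporter, changed by 0.31 (SE 0.10), and this call was lost when either BxPC3 replicate 1 or 3 or BxPC3-R replicate 1 or 3 was left out (adjusted p up to 0.156). Among the falls, the conjugate exporter gene ABCC3 read 7.10, 7.04 and 7.0 in BxPC3-R, against 7.96, 8.08 and 7.97 in BxPC3 (log2 change -0.96, SE 0.09, limma adjusted p = 5.84e-06). SLC31A2, ABCC5 and ATP7B changed by -0.45, -0.40 and -0.38, but lost their calls without BxPC3 replicate 2 (limma adjusted p = 0.0574, 0.0596 and 0.101) and also without other single arrays (up to 0.146, for ATP7B without BxPC3-R replicate 1), and ATP7B lay at the level of deleted genes. The copper importer gene SLC31A1, the main route of cisplatin uptake in many models, read 11.37, 11.40 and 11.49 in BxPC3-R, against 11.26, 11.20 and 11.32 in BxPC3 (log2 change 0.16, SE 0.08, limma adjusted p = 0.181). ABCC2, an exporter of glutathione conjugates, read 6.69, 6.51 and 6.62 in BxPC3-R, against 6.39, 6.86 and 6.32 in BxPC3 (log2 change 0.08, SE 0.14, limma adjusted p = 0.761). Neither passed the test.

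In DNA repair, ERCC1, part of the nuclease that incises platinum adducts, read 8.40, 8.43 and 8.43 in BxPC3-R, against 7.62, 7.78 and 7.74 in BxPC3 (log2 change 0.71, SE 0.12, limma adjusted p = 4.80e-04). The single-strand binding gene RPA2 and the ligase gene LIG1 rose by 0.65 (SE 0.13) and 0.58 (SE 0.09). Nucleotide excision and mismatch repair counted 5 higher and 1 lower of 28 genes (17.9% and 3.57%), with a median change of 0.053. Over all genes 9.75% were higher and 11.0% lower, and over expressed genes 14.1% and 15.3%. Without BxPC3 replicate 2 this list counted 6 higher and 1 lower. Crosslink repair and homologous recombination counted 8 higher and 2 lower of 31 (25.8% and 6.45%, median change 0.107), or 9 and 1 without that array. XRCC2, which acts in homologous recombination, read 7.53, 7.67 and 7.79 in BxPC3-R, against 6.64, 6.88 and 6.53 in BxPC3 (log2 change 0.98, SE 0.13, limma adjusted p = 8.22e-05). FANCM, which acts at crosslinks, rose by 0.47 (SE 0.09). SLFN11, which blocks stressed replication forks and whose loss is known from platinum-resistant tumours, read 6.54, 6.65 and 7.13 in BxPC3-R, against 7.65, 7.61 and 7.92 in BxPC3 (log2 change -0.95, SE 0.14, limma adjusted p = 2.29e-04). The checkpoint kinase gene CHEK2 changed by -0.64 (SE 0.19) and lost its call without any 1 of 5 arrays, BxPC3 replicate 2 among them (limma adjusted p = 0.0714). Of 15 translesion synthesis genes, 2 were higher and 3 lower, but 2 were lower without BxPC3 replicate 2 and 1 without BxPC3 replicate 3 or BxPC3-R replicate 1. POLI, a bypass polymerase and 1 of the 3, lost its call without any single array (limma adjusted p from 0.0768 to 0.126). Other members were REV1, a scaffold for bypass polymerases, at -0.38 (SE 0.07) and the primase-polymerase gene PRIMPOL at 0.39 (SE 0.07).

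Among cell death genes the share of higher members was near the 9.75% of all genes: 10.3% in the BCL2 family and caspases, 6.67% among TNF and TRAIL ligands and receptors and 11.5% among p53 targets. The shares of lower members, in the same order, were 27.6%, 26.7% and 19.2%, against 11.0% of all genes and 15.3% of expressed genes. Of 29 members of the BCL2 family and caspases, 3 were higher and 8 lower (2 and 7 without BxPC3 replicate 2), and 1 was higher without BxPC3 replicate 1 or 3 or BxPC3-R replicate 1 or 3. CFLAR, which blocks caspase-8 activation, changed by -1.38 (SE 0.09), or by -0.663 on its other probe set. The anti-apoptotic BCL2L1 fell by 0.52 on the log2 scale (SE 0.10), and the apoptosome gene APAF1, on chromosome 12, rose by 0.49 (SE 0.11). Among 30 TNF and TRAIL ligands and receptors, 2 were higher and 8 lower, but 5 were lower without that array and also without BxPC3-R replicate 1 or 3. TNFSF10, which encodes the death ligand TRAIL, read 9.42, 9.57 and 9.58 in BxPC3-R, against 11.22, 10.97 and 10.90 in BxPC3 (log2 change -1.50, SE 0.11, limma adjusted p = 3.88e-07). The death receptor gene FAS changed by -0.46 (SE 0.10), and TNFRSF11B, which encodes the TRAIL decoy osteoprotegerin, rose by 1.06 (SE 0.10). Of 26 p53 targets, 3 were higher and 5 lower, with and without BxPC3 replicate 2, but 1 was higher without BxPC3 replicate 1 or BxPC3-R replicate 3. PLK3 and SERTAD1 each lost their call without any 1 of 4 arrays (limma adjusted p up to 0.138 and 0.103). TIGAR, on chromosome 12, was at 0.88 (SE 0.11) and PMAIP1, which encodes NOXA, at -0.42 (SE 0.08).

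Adhesion genes shifted. The largest rise by the rule for named genes was that of CDH6, a cadherin of developing kidney and some carcinomas, which read 10.80, 10.68 and 10.65 in BxPC3-R, against 7.48, 8.13 and 8.05 in BxPC3 (log2 change 2.82, SE 0.15, limma adjusted p = 1.91e-08). CDH2, N-cadherin, read 8.43, 8.51 and 8.70 in BxPC3-R, against 7.15, 7.28 and 7.26 in BxPC3 (log2 change 1.31, SE 0.14, limma adjusted p = 1.21e-05). VIM, the mesenchymal intermediate filament, read 9.66, 9.77 and 9.69 in BxPC3-R, against 6.97, 8.52 and 7.58 in BxPC3 (log2 change 2.02, SE 0.26, limma adjusted p = 6.56e-05). Its BxPC3 arrays spread over more than 1.5 log2 units with replicate 2 highest, and without that array the change was 2.43. Of 29 transcription factors and markers of the epithelial-mesenchymal transition, 8 were higher and 3 lower, with and without BxPC3 replicate 2. These were 27.6% and 10.3%, against 9.75% and 11.0% of all genes. The other 18 were not called, and the median change was only 0.09. The lower genes were FN1, fibronectin, at -1.34 (SE 0.13), S100A4 and LOX. In the epithelial junction and polarity list, 20 of 36 genes were lower and 2 higher (17 and 2 without that array), with a median change of -0.373. The gap junction gene GJB6 changed by -1.56 (SE 0.12), GJA1 by -0.97 (SE 0.15), the protease gene ST14 by -0.93 (SE 0.10) and the epithelial transcription factor gene GRHL1 by -0.94 (SE 0.08), while PATJ, a polarity scaffold, rose by 0.27 (SE 0.07).

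Some keratins were higher. KRT8 read 10.94, 10.85 and 10.97 in BxPC3-R, against 9.60, 9.90 and 9.91 in BxPC3 (log2 change 1.12, SE 0.13, limma adjusted p = 2.56e-05), its partner KRT18 changed by 0.78 (SE 0.12), and KRT13 by 1.16 (SE 0.12), whereas KRT23 fell by 1.86 on the log2 scale (SE 0.15). Desmosome and keratin genes counted 9 higher and 3 lower of 23, or 6 and 3 without BxPC3 replicate 2, and 5 were higher without BxPC3 replicate 3. Of the 9 higher genes 5 lie on chromosome 12, where many genes were higher, and off it 4 of 16 were higher and 3 lower. Cornified envelope and squamous genes counted 3 higher and 11 lower of 32, with and without BxPC3 replicate 2, with SPRR2A at -3.21 (SE 0.14), the protease inhibitor gene SERPINB1 at -1.85 (SE 0.07) and the stem cell factor SOX2 higher at 1.16 (SE 0.25). SPRR2A and SPRR2D, like SERPINB3 and SERPINB4, are near-identical pairs whose separate values are uncertain. Among mucins and glycosyltransferases, 16 of 40 were lower and 1 higher (15 and 2 without that array), with GCNT3, which branches mucin-type glycans, at -2.52 (SE 0.12) and MUC16 at -1.01 (SE 0.12). Of 10 endothelial markers, 3 were lower, CDH5 at -2.67 (SE 0.15), TEK at -1.71 (SE 0.12) and PECAM1 at -1.24 (SE 0.13); CDH5, VE-cadherin, read 6.75, 6.56 and 6.70 in BxPC3-R, against 9.23, 9.53 and 9.27 in BxPC3. Of 10 fibroblast markers, LUM, PDGFRA and FAP were higher, at 1.53, 1.21 and 0.73, where the call of FAP was lost without any 1 of 4 arrays, BxPC3 replicate 3 among them (limma adjusted p = 0.0944). LUM lies on chromosome 12, where many genes were higher. Its mean was under 6.55 in both groups, so the size of its rise is uncertain. The list's mean level was 5.79 to 5.95 in BxPC3-R and 5.43 to 5.63 in BxPC3. In bulk RNA, fewer cells with a transcript and less of it per cell cannot be told apart.

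Of 39 collagens and matrix proteins, 4 were higher and 7 lower (3 and 6 without BxPC3 replicate 2, and 4 lower without BxPC3-R replicate 2). With all arrays these were 10.3% and 17.9%, against 9.75% and 11.0% of all genes. HAS2, which makes hyaluronan, read 12.93, 12.86 and 12.85 in BxPC3-R, against 9.79, 10.67 and 10.58 in BxPC3 (log2 change 2.53, SE 0.18, limma adjusted p = 2.80e-07). The change of the proteoglycan gene VCAN was -1.03 (SE 0.31), but -0.51 without BxPC3 replicate 2, where it was highest at 8.26, and its call was lost without BxPC3-R replicate 1 (limma adjusted p = 0.104) or 2 (0.0759). NPNT, a ligand of integrins, changed by -1.20 (SE 0.28), and by -0.76 without that array. These were the only 2 of the 428 genes changed at least 2-fold whose change moved by more than 1.5 times without it. The collagenase gene MMP13 and the stromelysin gene MMP10 rose by 1.06 (SE 0.17) and 1.22 (SE 0.14), whereas TIMP2, a metalloproteinase inhibitor, fell by 1.20 (SE 0.09). Of 33 matrix proteases and inhibitors, 5 were higher and 9 lower (6 and 8 without that array). Of 27 integrins and laminins, 3 were higher and 4 lower (11.1% and 14.8%), near the shares of all genes. There were 4 and 2 without BxPC3 replicate 2, and 2 were lower also without BxPC3 replicate 3 or BxPC3-R replicate 1 or 2. ITGB5 was at 0.71 (SE 0.10) and ITGB3 at -1.48 (SE 0.13).

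**Figure D3:**
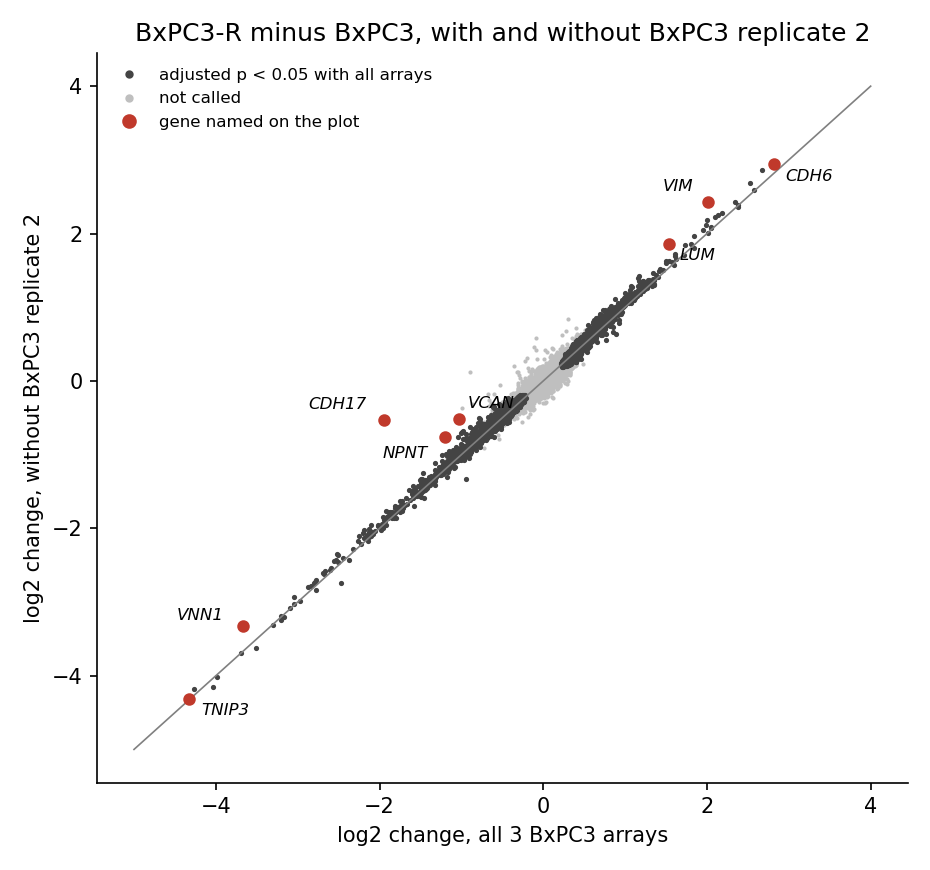
Log2 change, BxPC3-R minus BxPC3, of 18417 genes with all 3 BxPC3 arrays (x axis) and without BxPC3 replicate 2 (y axis); the line marks equal values. Dark points passed limma with all arrays. VIM and LUM lie above the line at 2.43 and 1.86 without the array, and CDH17, not called with all arrays, moved to -0.53. The mean of LUM was under 6.55 in both groups.

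Of 33 RGS proteins and RAS-type GTPase regulators, 3 were higher and 4 lower (9.09% and 12.1%, median -0.014), near the shares over all genes, and 4 and 4 without BxPC3 replicate 2. Single members were among the largest rises. RGS4, which switches off G-protein signals, read 8.91, 8.85 and 8.85 in BxPC3-R, against 5.62, 6.58 and 6.39 in BxPC3 (log2 change 2.67, SE 0.21, limma adjusted p = 9.53e-07). RERG, on chromosome 12, a RAS-like GTPase that restrains growth in breast cells, read 7.71, 8.07 and 8.18 in BxPC3-R, against 5.46, 5.45 and 5.33 in BxPC3 (log2 change 2.57, SE 0.15, limma adjusted p = 4.87e-08). BxPC3 levels of both were at or near those of deleted genes. IGFBP5, which binds insulin-like growth factors, read 9.21, 9.24 and 9.05 in BxPC3-R, against 7.12, 7.18 and 7.04 in BxPC3 (log2 change 2.05, SE 0.10, limma adjusted p = 8.03e-09). The ephrin receptor genes EPHA7 and EPHA4 rose by 1.95 (SE 0.11) and 1.27 (SE 0.09), the ephrin gene EFNB2 by 0.95 (SE 0.11) and KITLG, the ligand of KIT, by 0.91 (SE 0.07). Of 47 receptor tyrosine kinases and EGF-type ligands, 12 were higher and 8 lower (12 and 7 without BxPC3 replicate 2, and 5 lower without BxPC3-R replicate 2). MAPK feedback and immediate early genes counted 9 higher and 6 lower of 38 (11 and 5 without that array), with ETV1 and SPRY2 at 0.78 (SE 0.12) and 0.61 (SE 0.10), and with DUSP1 and EGR1 at -0.89 (SE 0.08) and -0.54 (SE 0.13).

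In the TGF-beta and BMP pathway, 10 of 45 genes were higher and 7 lower (9 and 7 without BxPC3 replicate 2), with the ligand gene BMP4 at 0.95 (SE 0.16), the pseudoreceptor gene BAMBI at 0.81 (SE 0.14) and the BMP target ID1 at -1.08 (SE 0.12). WNT pathway genes counted 5 higher and 3 lower of 47 (10.6% and 6.38%, against 9.75% and 11.0% of all genes). Without BxPC3 replicate 2 there were 7 and 3. Single called members were ROR1 at 1.16 (SE 0.19), the transcription factor gene LEF1 at 0.82 (SE 0.16), the inhibitor gene DKK1 at 0.68 (SE 0.10) and the receptor gene FZD3 at -1.21 (SE 0.11). HEY1, a Notch target, rose by 1.35 (SE 0.08). Of 26 Notch pathway genes, 2 were higher and 2 lower (7.69% each, under the shares of all genes), with and without BxPC3 replicate 2. YAP and TEAD targets counted 3 higher and 8 lower of 27 (3 and 7 without it): the endothelin gene EDN1 changed by -2.13 (SE 0.08), ANKRD1 by -1.26 (SE 0.12) and CCN2 by -0.77 (SE 0.11), while the kinase receptor gene AXL rose by 0.63 (SE 0.09). In the prostaglandin pathway, 4 of 22 genes were higher and 4 lower (18.2% each, against 9.75% and 11.0% of all genes). The median change was -0.026, and there were 4 higher and 3 lower without BxPC3 replicate 2. HPGD, which inactivates prostaglandins, rose by 1.35 (SE 0.11) and the leukotriene enzyme gene ALOX5 fell by 1.41 (SE 0.12).

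DNA replication genes were higher. CLSPN, which encodes the fork protection protein claspin, read 11.51, 11.59 and 11.70 in BxPC3-R, against 10.23, 10.57 and 10.43 in BxPC3 (log2 change 1.19, SE 0.11, limma adjusted p = 3.87e-06). ORC1, of the origin recognition complex, read 8.93, 8.93 and 8.99 in BxPC3-R, against 7.75, 8.28 and 8.21 in BxPC3 (log2 change 0.87, SE 0.15, limma adjusted p = 7.62e-04). In both genes BxPC3 replicate 1 was the lowest array. The cyclin gene CCNE2 and the fork factor gene TIMELESS rose by 0.79 (SE 0.09) and 0.71 (SE 0.11). Of 47 replication genes, 27 were higher and 0 lower by limma (29 and 0 at an unadjusted p under 0.05), with a median change of 0.304; 25 were higher without BxPC3 replicate 2 and 20 to 25 with any single array left out. With the 5 members on chromosome 12 left out, 22 of 42 were higher. Members on chromosome 1, where CLSPN lies and 24.7% of expressed genes were higher, were not left out. Mitosis genes counted 1 higher and 4 lower of 40 (2.5% and 10.0%, against 9.75% and 11.0% of all genes). There were 1 and 2 without BxPC3 replicate 2, and 2 lower also without BxPC3 replicate 3 or BxPC3-R replicate 1 or 2. CDC20 was at 0.47 (SE 0.10) and HMMR at -0.41 (SE 0.09). G1 regulators and MYC counted 7 higher and 5 lower of 30, with and without BxPC3 replicate 2, and 4 to 7 higher with any single array left out. MYC changed by -0.58 (SE 0.10), the cyclin gene CCND2 by -0.99 (SE 0.15) and MYBL2 by 0.54 (SE 0.09). Ribosome biogenesis counted 15 higher and 0 lower of 32 by limma (20 and 1 at an unadjusted p under 0.05), with UTP20 at 1.20 (SE 0.10) and NOP2 at 0.85 (SE 0.11), both on chromosome 12. This count was 14 without BxPC3 replicate 2, but 8 without BxPC3 replicate 1, BxPC3-R replicate 2 or BxPC3-R replicate 3 and 9 without BxPC3 replicate 3.

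Sterol synthesis genes were lower: of 24, 12 were lower and 0 higher by limma (13 and 1 at an unadjusted p under 0.05), and 10 were lower without BxPC3 replicate 2. INSIG1, which retains the sterol sensor in the endoplasmic reticulum, read 7.67, 7.68 and 7.67 in BxPC3-R, against 9.03, 9.04 and 8.98 in BxPC3 (log2 change -1.34, SE 0.08, limma adjusted p = 4.94e-08). SREBF2, the transcription factor of the pathway, changed by -0.97 (SE 0.09) and MSMO1, a sterol oxidase, by -0.94 (SE 0.10). In fatty acid and glycerolipid metabolism, 6 of 39 genes were higher and 12 lower (6 and 11 without that array), with the elongase gene ELOVL6 at 0.93 (SE 0.10), the lipid droplet gene PLIN2 at 0.87 (SE 0.15) and the desaturase gene SCD at -1.16 (SE 0.09). Hypoxia and glycolysis genes counted 4 higher and 11 lower of 37 (2 and 10 without that array; 2 higher also without BxPC3 replicate 1, and 1 without BxPC3-R replicate 1), among them the prolyl hydroxylase gene EGLN3 at -1.60 (SE 0.13) and NDRG1 at -1.18 (SE 0.10). Oxidative phosphorylation genes counted 12 lower and 0 higher of 40 by limma (17 and 2 at an unadjusted p under 0.05), but 6 were lower without BxPC3 replicate 2 or BxPC3-R replicate 2, 7 without BxPC3 replicate 3 and 4 without BxPC3-R replicate 1. Of 24 heat shock genes, 6 were higher and 1 lower (4 and 1 without BxPC3 replicate 2), with the extracellular chaperone gene CLU at 1.46 (SE 0.09) and HSPH1 at 0.49 (SE 0.07). The amino acid and ER stress response counted 3 higher and 14 lower of 44 (2 and 13 without BxPC3 replicate 2), with NUPR1 at -0.96 (SE 0.11) and DDIT4 at -0.77 (SE 0.13).

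Neighbouring genes moved in common along chromosome 12. Of its 603 genes expressed in the pair, 264 (43.8%) were higher and 33 lower, with a median change of 0.252, against 14.1% higher and 15.3% lower of all 11499 expressed genes. Chromosome 1 followed with 24.7% higher, but unevenly. Its 50 expressed genes from LRRC8D to PRPF38B had a median change of 0.456, with 33 higher and 1 lower. Those from KDM5B to LPGAT1 had a median of -0.147, with 2 higher and 15 lower. Of 1046 windows of 50 neighbouring expressed genes, the one from TBC1D15 to APAF1 on chromosome 12 had the highest median change, 0.582, with 40 genes higher and 1 lower, while 90% of windows had medians between -0.098 and 0.233. Its median level was 9.84, 9.83 and 9.83 in BxPC3-R, against 9.36, 9.29 and 9.34 in BxPC3. The window was picked by its change on these same arrays, so this gap is no further support. Without BxPC3 replicate 2 it kept a median of 0.607 with 39 genes higher. In AsPC1-R the median change of the same 50 genes was -0.329, with 3 higher and 30 lower, and the difference between the derivatives passed limma in the positive direction for 39 genes and in the negative for 2. KITLG, within this window, changed by 0.91 in BxPC3-R and -0.71 in AsPC1-R. The lowest window lay on chromosome 3, from C3orf52 to SEC22A, with a median of -0.205.

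**Figure D4:**
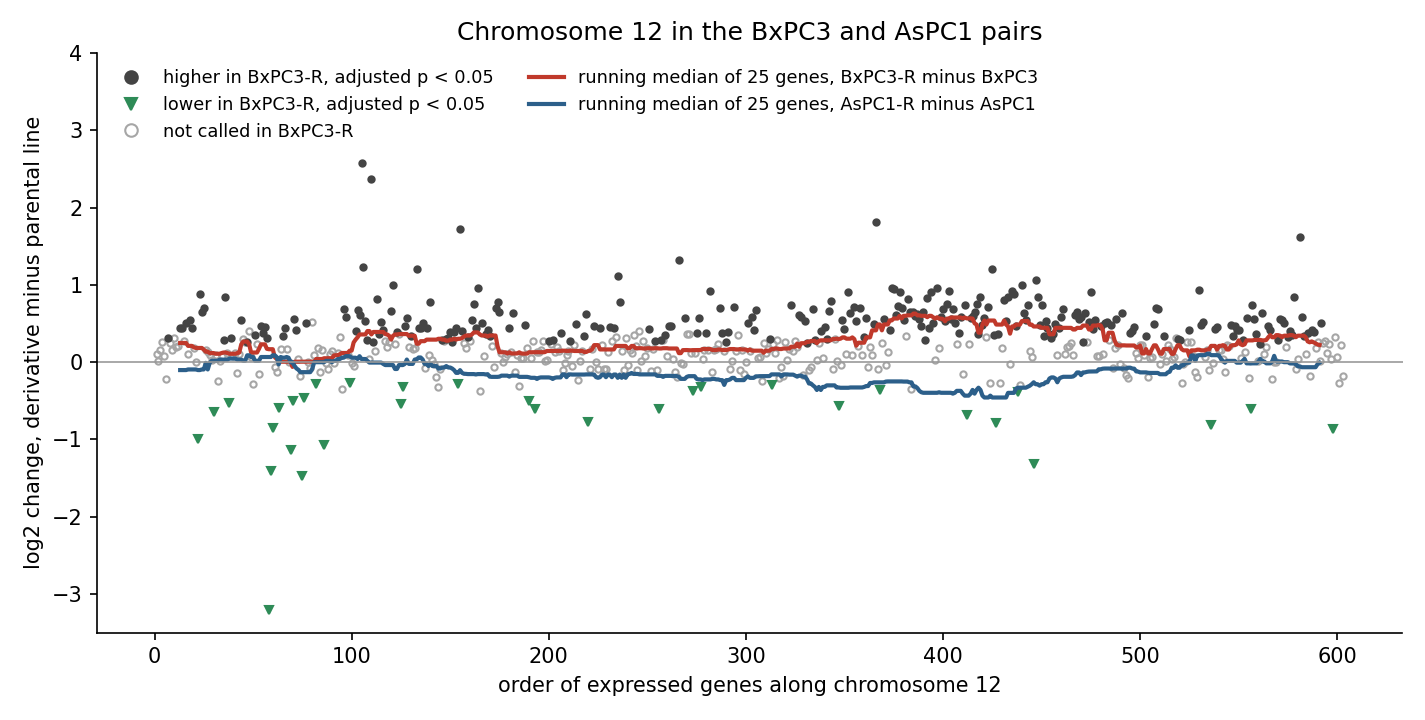
Log2 change (y axis) of the 603 expressed genes of chromosome 12, in gene order (x axis), with running medians of 25 genes for the BxPC3 and AsPC1 pairs. Black points are higher and green triangles lower in BxPC3-R at an adjusted p under 0.05. The running median of the BxPC3 pair has its lowest value at -0.062 and its highest at 0.628, near PAWR, where that of the AsPC1 pair is -0.315. The AsPC1 pair is lowest, at -0.458, near BLTP3B, where the BxPC3 pair is at 0.538.

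The change in BxPC3-R was set against the change in AsPC1-R to see whether the derivatives moved alike. By limma's test of the difference, 4685 genes (25.4%) differed between them. Of the genes called in both derivatives, 435 moved in the same direction and 991 in opposite ones: 631 were lower in BxPC3-R and higher in AsPC1-R, and 360 were higher in BxPC3-R and lower in AsPC1-R. SAA2 changed by -3.99 in BxPC3-R and 6.33 in AsPC1-R, a difference of -10.31 (SE 0.24, limma adjusted p = 5.59e-12). CXCL5 changed by -3.04 and 4.07 in the same order, a difference of -7.12 (SE 0.15, limma adjusted p = 1.75e-12). SAA1, CCL20 and C3 also fell in BxPC3-R and rose in AsPC1-R. In the other direction, SYTL5, an effector of secretory RAB proteins, changed by 2.38 and -1.58, a difference of 3.96 (SE 0.11, limma adjusted p = 2.40e-11), and HAS2 by 2.53 and -1.12. For NRF2 targets the median change was -0.404 in BxPC3-R and 0.486 in AsPC1-R, and the difference was called for 25 of 31 genes. Interferon-stimulated genes had medians of -0.333 and 0.836, with the difference called for 36 of 40. Sterol synthesis genes had medians of -0.322 and -0.201, with the difference called for 7 of 24. CLU changed by 1.46 and 1.15 and MT1E by -1.01 and -0.90, and for neither did the difference pass (limma adjusted p = 0.0722 and 0.633).

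**Figure D5:**
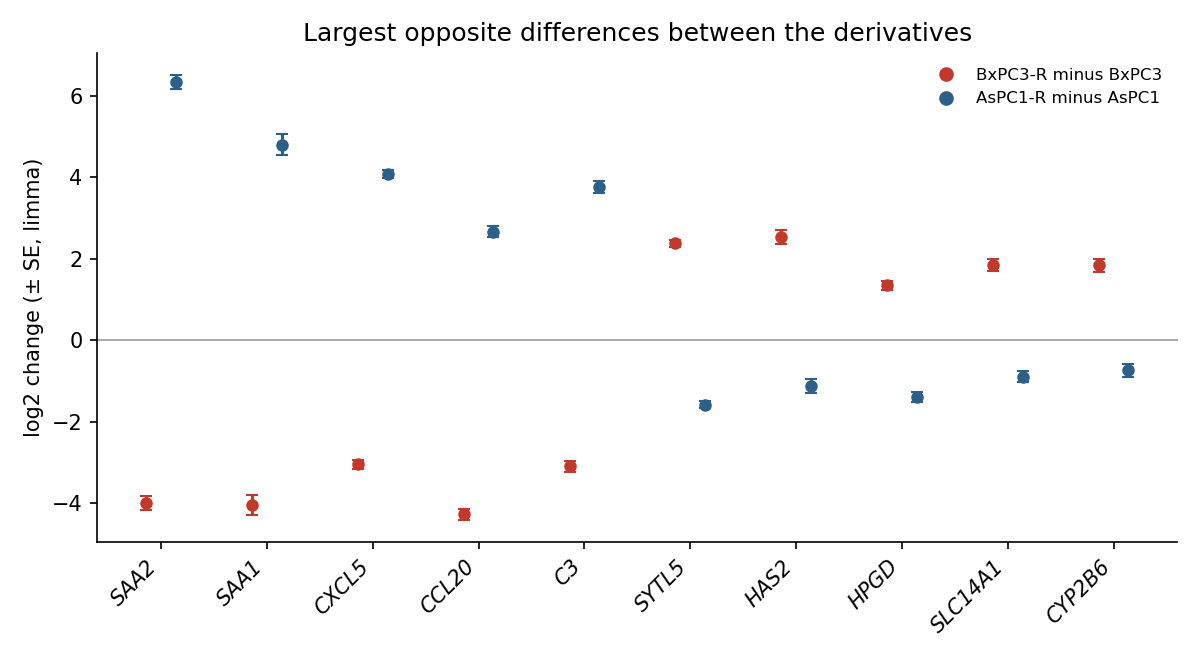
Log2 change ± SE (limma, 3 arrays per group) in BxPC3-R and AsPC1-R for the 5 largest differences in each direction among genes with opposite changes. SAA2 has the widest gap, at -3.99 and 6.33.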

How the data were processed

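Total RNA was extracted, amplified and biotin-labelled, per the labels' protocols, for 3 arrays in each group. Per the submitters' processing notes, the authors used RMA in Affymetrix Expression Console. RMA subtracts background, applies quantile normalisation and sums up the probes of a set. The values the authors deposited are log2 levels. Versions and genome build were not given in the sources used here. Arrays have no read depth, so precision rests on their number.

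Of 33297 probe sets, 19460 had 1 gene symbol in the platform annotation, 1754 several and 12083 were not listed. The probe set with the highest mean over 12 arrays stood for each of the 769 genes with more than 1, which gave 18417 genes. RefSeq (GRCh38.p14) named 18389 of them and gave chromosome, gene order and promoter sequences (no coordinates were converted). Changes were tested two-sided with limma 3.58.1 in R 4.3.3 (lmFit and eBayes, 4 group means over 12 arrays, 8 residual degrees of freedom), with Benjamini and Hochberg adjustment over all genes. A gene was called at an adjusted p under 0.05. Genes expressed in the pair had a group mean of at least 6.55, the median of all values. Of 1769 list memberships, 1608 had a gene measured by a probe set with 1 symbol, and the counts in the text are over these. The limma fit was tested on simulated data.

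The members, the gene lists, the motifs and the rule for named genes were chosen with earlier results of these data known. Text names up to 20 genes per direction by size of change among called genes whose arrays do not overlap and whose call held without BxPC3 replicate 2. Added to these are up to 4 members per list and direction, 8 drug-related or deleted genes, up to 5 opposite differences per direction and genes that move without that array. CDH17 was chosen after its values were seen. Alternatives were a fit blocked on replicate number, a filter on dim genes, 3 normalisations (arrays centred on medians over all probe sets or, added after seeing the data, over the genes, and quantile normalisation), trend and robust eBayes, array weights, 6 arrays, mean over probe sets, and each array left out. The main fit did not pair arrays by replicate number, and the labels do not state whether the numbers mark pairs.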

Additional observations from a re-analysis of the deposited data

Results flagged for a closer look

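The change from the parental line differed between BxPC3-R and AsPC1-R for 4685 genes by limma's test of the difference (adjusted p under 0.05). The 5 largest differences with a fall in BxPC3-R and a rise in AsPC1-R, as BxPC3-R change minus AsPC1-R change on the log2 scale, were -10.31 for SAA2, -8.83 for SAA1, -7.12 for CXCL5, -6.93 for CCL20 and -6.85 for C3. The 5 largest with a rise in BxPC3-R and a fall in AsPC1-R were 3.96 for SYTL5, 3.65 for HAS2, 2.74 for HPGD, 2.73 for SLC14A1 and 2.57 for CYP2B6. The BxPC3 level of SLC14A1 averaged 4.83 and that of CYP2B6 5.77, at the levels of deleted genes, so both sizes are uncertain.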

How the results depend on the processing

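The counts of called genes stayed within 1.5 times of 3826 under every alternative except array weights, which gave 6356 calls, 3280 higher and 3076 lower, with weights of 0.596, 0.631 and 3.732 for BxPC3 replicates 1, 2 and 3; the cause was not tested. Leaving out single arrays gave 2970 to 3254 calls (1356 to 1601 higher and 1602 to 1864 lower), 99 to 138 higher and 296 to 337 lower at least 2-fold, and 3961 to 4573 differences between the derivatives. The fit with a replicate block gave 3661 calls and 4525 differences, and changed the call of 6 of the 328 called results for named genes. Deviations from the group means correlated at 0.171, -0.088 and 0.078 for same-numbered arrays, and BxPC3-R replicate 3 correlated best with another number (0.2). With 3 arrays per group, these values cannot show whether same-numbered arrays were handled in common. No named result reversed. Of the 328, 44 lost their call when some single array was left out, 24 of them without BxPC3 replicate 2, and 21 under some other alternative. Background correction could not be redone from RMA values, and only 3 arrays per group limit what can be called.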

Other observations

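Other large rises concerned genes outside the lists. PIK3C2G, a class II phosphoinositide 3-kinase, read 8.70, 8.82 and 8.71 in BxPC3-R, against 6.33, 6.40 and 6.38 in BxPC3 (log2 change 2.37, SE 0.10, limma adjusted p = 3.63e-09). It lies on chromosome 12, where many genes were higher. PCDH20, a protocadherin, read 9.28, 9.48 and 9.65 in BxPC3-R, against 6.74, 7.28 and 7.34 in BxPC3 (log2 change 2.35, SE 0.16, limma adjusted p = 1.53e-07). EYA1, a transcriptional coactivator with phosphatase activity, rose by 2.14 (SE 0.23), and the carboxypeptidase gene CPA4 by 2.05 (SE 0.17). Among the falls, the zinc finger gene ZNF676 read 3.67, 3.74 and 3.72 in BxPC3-R, against 6.72, 6.82 and 6.75 in BxPC3 (log2 change -3.05, SE 0.11, limma adjusted p = 8.04e-10), with its BxPC3-R arrays under the level of SMAD4, and the fatty acid hydroxylase gene CYP4F11 changed by -2.78 (SE 0.20).

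Of genes used to split pancreatic cancer into subtypes, 4 of 34 classical genes were higher and 6 lower (11.8% and 17.6%). Over all genes the shares were 9.75% and 11.0%, and over expressed genes 14.1% and 15.3%, so the classical list was near them. Single called members were S100P at -1.46 (SE 0.10) and TMEM45B at -1.81 (SE 0.10). Of 27 basal-like genes, 6 were higher and 8 lower (22.2% and 29.6%), with UCA1, which encodes a long noncoding RNA, at -1.45 (SE 0.18). Without BxPC3 replicate 2, classical genes counted 2 higher, as they did without BxPC3 replicate 3 or BxPC3-R replicate 2, and 6 lower, and basal-like genes 6 higher and 5 lower; the last count was also 5 without BxPC3 replicate 3, BxPC3-R replicate 2 or BxPC3-R replicate 3. Of 17 stem cell markers, 3 were higher and 2 lower (17.6% and 11.8%). Without BxPC3 replicate 2 there were 4 higher and 1 lower, and without any of the other 5 arrays 0 lower, so the lower calls did not hold. DCLK1 was at 1.53 (SE 0.18) and CD24 at 0.93 (SE 0.12). Cytochrome P450, aldehyde dehydrogenase and conjugating enzymes counted 4 higher and 10 lower of 46 (8.7% and 21.7%), or 5 and 8 without BxPC3 replicate 2. Among them were CYP2S1 at 1.22 (SE 0.12) and the vitamin D hydroxylase gene CYP24A1 at -1.55 (SE 0.12).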
